A study of Capra hircus with 3 samples.

Results

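The genes described here are the actins and the proteins that set the length of actin filaments in muscle, read from RNA of the longissimus dorsi, the long back muscle, of goats (Capra hircus). They were chosen by name, from the product text of the deposited table, and no value entered the rule. Earlier results of these data were known when the choice was made. The names covered 10 of the 24689 entries. An 11th entry was added because the names of the cytoplasmic actins disagreed. Gene 100860883 carried the product text of beta-actin in the deposited table but is ACTG1 in RefSeq (assembly ARS1.2). Gene 102179831, with the text of a cytoplasmic actin 1-like product, is ACTB in RefSeq. Both are reported under their RefSeq symbols, and all 11 had recovered reads and averaged at least 1 FPKM. There were 3 libraries, from goats of 2 months (kid), 9 months (youth) and 24 months (adult), without any treatment or genetic change named in the labels. Each age had 1 library, and neither the number of animals behind it nor their breed or sex is stated in the labels. No difference therefore has a replicate check and no test between ages was possible. Each value describes these libraries. Where 3 values follow each other they are in the order kid, youth, adult.

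The tissue label and the extraction protocol named different tissues, longissimus dorsi and mammary gland. All 10 defining genes of skeletal muscle fibres were abundant, with summed levels of 46030, 51803 and 54721 FPKM (fragments per kilobase of gene, scaled to the mapped reads of the library). Of 7 mammary epithelium genes with an entry, the caseins CSN1S1, CSN1S2, CSN2 and CSN3, LALBA and KRT8 were at 0 in all 3 libraries, and KRT18 was at 3.11, 1.44 and 1.17 FPKM. The totals behind the values, worked out from their steps, lay between 14920689 and 18399385. The genes described here had between 324 reads (ACTC1 in youth) and 544262 reads (ACTA1 in adult) in a library. Each ratio between libraries is given with an exact 95% interval (Clopper-Pearson) of the reads, which covers counting error only. A ratio whose interval leaves out 1 is called beyond counting error.

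The thin filament of striated muscle is a polymer of alpha-actin that is anchored at the Z-disc by its fast-growing barbed end and points its slow-growing pointed end to the middle of the sarcomere. CapZ, a dimer of an alpha and a beta subunit, caps the barbed end. Tropomodulins cap the pointed end and stop growth there. Leiomodins, their relatives, bind actin near the pointed end and promote assembly and elongation of filaments. The kelch proteins KLHL40 and KLHL41 stabilise nebulin, the long protein that runs along the filament, and KLHL40 also stabilises leiomodin 3. Mutations in ACTA1, LMOD3, KLHL40, KLHL41 and the nebulin gene cause nemaline myopathy, a muscle weakness with rod-shaped aggregates of thin-filament protein.

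The order of the 11 genes by FPKM was almost the same in the 3 libraries. ACTA1 came first, then KLHL41, TMOD4 and LMOD2. In kid ACTG1 followed, ahead of LMOD3, while in youth and adult LMOD3 stood ahead of ACTG1. ACTB, KLHL40, TMOD1, CAPZB and ACTC1 came next in each library, in this order. All 30 neighbouring pairs, 10 in each library, were apart beyond counting error. Among all entries ACTA1 ranked 2 in kid and youth and 1 in adult, and ACTC1 ranked 1863, 3340 and 2694.

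**Figure D1:**
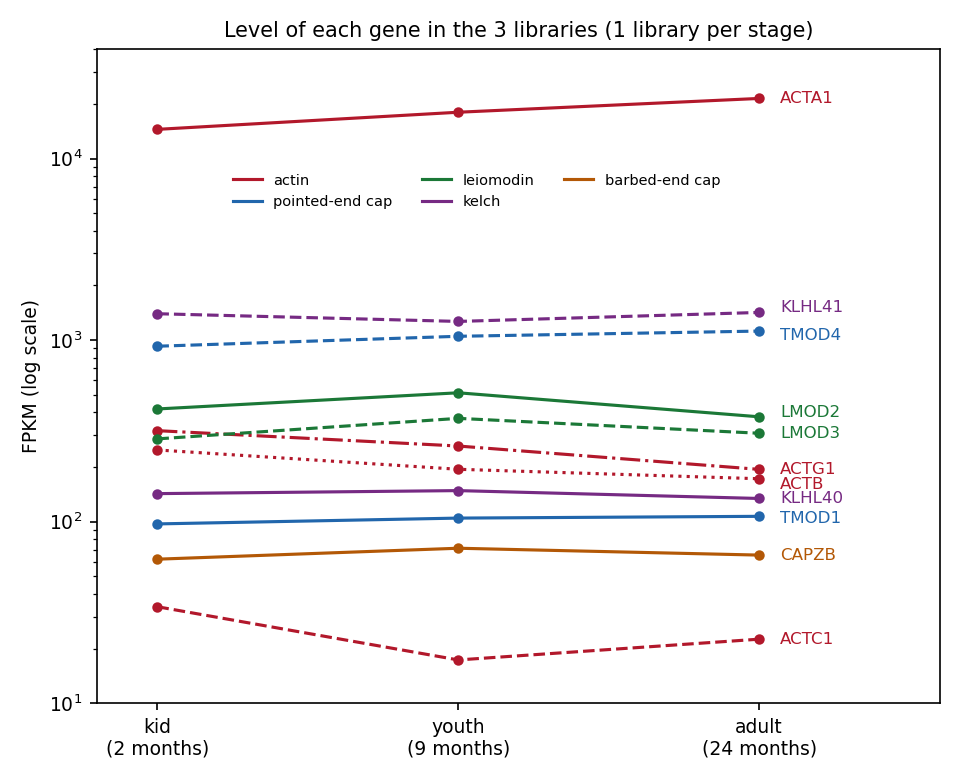
FPKM of the 11 genes (log axis) in the kid, youth and adult libraries, 1 point per library, coloured by role. ACTA1 lies far above the others throughout, at 14480 to 21435 FPKM, and ACTC1 lies lowest, at 17.3 to 34.0 FPKM.

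ACTA1 (gene 102182476) encodes skeletal alpha-actin, the main actin of adult fibres. Its level was 14480, 17994 and 21435 FPKM, highest in the library of the oldest age and lowest in that of the youngest. It was 1.24-fold higher in youth than in kid (interval 1.24 to 1.25), 1.19-fold higher in adult than in youth (1.19 to 1.20) and 1.48-fold higher in adult than in kid (1.47 to 1.49). Among the 12121 genes that averaged 1 FPKM or more, 4.33% had a higher ratio of adult to kid. For youth to kid 8.34% had a higher ratio, and for adult to youth 23.8%. ACTA1 made up 2.74%, 3.45% and 3.94% of all FPKM. Quantile normalization, which sets equal ranks to equal values, moved the difference on the log2(FPKM + 1) scale from 0.31 to 0 in youth against kid and from 0.57 to 0.20 in adult against kid.

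Ratios within a library do not depend on how libraries are scaled against each other. ACTA1 stood at 75.8, 94.1 and 110.4 times the level of titin (TTN), the elastic protein that spans half-sarcomeres, in kid, youth and adult. Against desmin (DES), the intermediate filament protein around the Z-disc, the ratio was 3.52, 4.51 and 5.18. These ratios stood in the same order as the FPKM of ACTA1. Against muscle creatine kinase (CKM) it was 1.02, 0.944 and 1.13, so that youth was lowest there. Against the alpha-actinins, which crosslink actin in the Z-disc, the order depended on the isoform. ACTA1 over ACTN2 was 11.7, 17.9 and 16.7, and ACTA1 over ACTN3, the isoform of fast fibres, was 12.4, 12.1 and 18.6.

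ACTC1 (gene 102170606) encodes cardiac alpha-actin, which skeletal muscle expresses during development and the adult heart keeps. Its level was 34.0, 17.3 and 22.5 FPKM, from 675, 324 and 520 reads, highest in kid and lowest in youth. It was 1.96-fold lower in youth than in kid (1.72 to 2.25), and 2.11% of all genes had a lower ratio. In adult it was 1.30-fold higher than in youth (1.13 to 1.50) and 1.51-fold lower than in kid (1.34 to 1.69). Its share of the summed level of both sarcomeric actins was 0.234% in kid (0.217 to 0.252), 0.0961% in youth (0.0859 to 0.107) and 0.105% in adult (0.0961 to 0.114). The share of kid lay above the intervals of the other libraries, and those of youth and adult overlapped. ACTA1 and ACTC1 encode nearly identical proteins, and the sources used here do not say how reads that match several genes were counted. With ACTA1 at 426 to 1040 times the level of ACTC1, a small share of misplaced reads would weigh on ACTC1, which was not tested. In youth against kid ACTC1 was lower and ACTA1 higher, and in adult against youth both were higher.

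Genes of heart muscle and of immature fibres were set beside ACTC1. Of 9 heart genes with an entry, NPPA, MYL7 and GATA4 were at 0 in all 3 libraries, and only the entry of cardiac troponin I (TNNI3) averaged at least 1 FPKM. TNNI3 was at 11.2, 5.42 and 8.38 FPKM, from 118, 54 and 103 reads. It stood in the same order as ACTC1, 2.06-fold lower in youth than in kid (1.48 to 2.90) and 1.55-fold higher in adult than in youth (1.10 to 2.19). The 8 genes of immature or regenerating fibres summed to 24.3, 24.4 and 23.5 FPKM. Of the 6 that averaged 1 FPKM or more, 1 was higher and 1 lower in youth than in kid beyond counting error. There 11.6% of all genes were higher and 26.9% lower. In adult against youth 1 was higher and 2 lower, against 22.3% and 27% of all genes. In adult against kid 2 were higher and 1 lower, against 16.7% and 34.6%. The part of these cells or states in the level of ACTC1 was not tested.

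The cytoplasmic actins build the cytoskeleton of all cells, including the non-muscle cells of the tissue. ACTB (gene 102179831) was at 248, 194 and 172 FPKM, and ACTG1 (gene 100860883) at 317, 261 and 194 FPKM. Both were highest in kid and lowest in adult, the reverse of ACTA1. ACTB was 1.44-fold lower in adult than in kid (1.39 to 1.49), and ACTG1 was 1.63-fold lower (1.58 to 1.69). For ACTB most of this lay between kid and youth (1.28-fold lower, 1.23 to 1.33), against 1.13-fold between youth and adult (1.08 to 1.17). For ACTG1 the larger step lay between youth and adult (1.34-fold lower, 1.30 to 1.39), against 1.22-fold between kid and youth (1.18 to 1.25). ACTG1 over ACTB was 1.28 in kid (1.24 to 1.32), 1.34 in youth (1.29 to 1.39) and 1.13 in adult (1.09 to 1.17). ACTB and ACTG1 together stood at 39.0 FPKM per 1000 FPKM of ACTA1 in kid, 25.3 in youth and 17.1 in adult.

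Markers of non-muscle cells moved with part of this. In bulk tissue, fewer cells of a type and less RNA per cell cannot be told apart. The 9 fibroblast genes summed to 1086, 1325 and 929.6 FPKM, and 8 of them were lower in adult than in kid beyond counting error, against 34.6% of all genes. Of these 8 the collagens COL1A1 and COL1A2 turned direction with each library divided by its median ratio. Most of the 9 averaged more than ACTC1, and counting intervals are narrow for abundant genes. Among genes averaging as much as ACTC1 or more, 72.5% were beyond counting error in adult against kid, in either direction. Of 8 endothelial genes with an entry 5 were lower in adult than in kid, against the same 34.6%, and their sums were 208, 178 and 173 FPKM. All 8 macrophage and monocyte genes with an entry were lower in adult than in youth and than in kid, where 27% and 34.6% of all genes were, with sums of 73.8, 81.1 and 39.7 FPKM. In youth against kid both cytoplasmic actins were lower, where 11.6% of all genes were higher and 26.9% lower. There 4 fibroblast genes were higher and 4 lower. Of the endothelial genes 1 was higher and 4 were lower, and of the macrophage and monocyte genes 1 was higher and 0 lower. In adult against youth 1 fibroblast gene was higher and 8 lower, and 2 endothelial genes were higher and 3 lower. All genes were at 22.3% and 27% there. The part of these cells in the levels of ACTB and ACTG1 was not tested.

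The smooth muscle actins, which are not regulators of the thin filament of fibres, followed another order. ACTA2, the actin of vessel walls, was at 137, 95.8 and 147 FPKM. ACTG2, the enteric form, was at 9.32, 4.50 and 15.4 FPKM, from 187, 85 and 360 reads. Both were lowest in youth. ACTG2 was 3.43-fold higher in adult than in youth (2.70 to 4.40) and ACTA2 1.54-fold (1.46 to 1.63). ACTG2 stood below ACTC1 in each library. As for ACTC1, reads misplaced from more abundant actins could weigh on ACTG2, ACTA2, ACTB and ACTG1, which was not tested. Of the 12 smooth muscle and pericyte genes, which include both, 10 were higher in adult than in youth and 1 was lower, against 22.3% and 27% of all genes. Of the 10, DES, which was also counted among the skeletal muscle fibre genes, turned direction when libraries were rescaled to a common sum. The actin-like ACTBL2 was listed at 0 throughout. ACTA1 made up 95.1%, 96.9% and 97.5% of the summed FPKM of the 6 detected actins in kid, youth and adult.

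**Figure D2:**
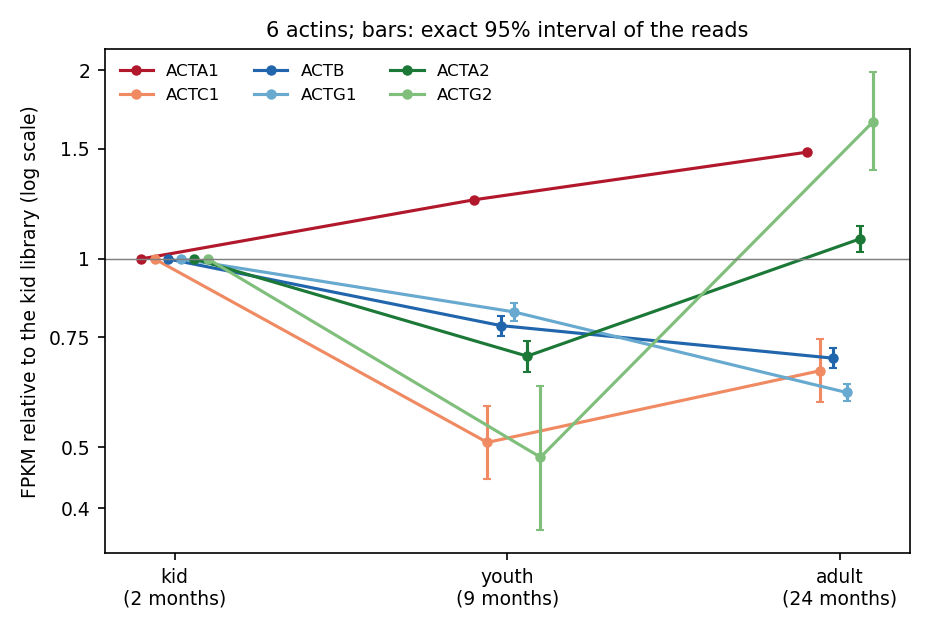
Level of 6 actins relative to the kid library (log axis) against stage, with bars for the exact 95% interval of the reads. ACTA1 lies above 1 at both later stages, ACTB and ACTG1 lie below 1, and ACTC1, ACTA2 and ACTG2 are lowest in youth.

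Both tropomodulins of skeletal muscle were slightly higher in the later libraries. TMOD4 (gene 102176002), the isoform of skeletal muscle, was at 925, 1049 and 1121 FPKM, the same order as ACTA1. It was 1.13-fold higher in youth than in kid (1.11 to 1.16), 1.07-fold higher in adult than in youth (1.05 to 1.09) and 1.21-fold higher in adult than in kid (1.19 to 1.23). TMOD1 (gene 102169101), the tropomodulin first known from red blood cells and the heart, was at 97.1, 104.6 and 106.9 FPKM. Its ratio of adult to youth was 1.02, with an interval that included 1 (0.982 to 1.06) and a sign that turned under 3 of the 4 other scalings. It was 1.10-fold higher in adult than in kid (1.06 to 1.15). Its highest and lowest levels were 1.10-fold apart, and 10.01% of all genes had a smaller range. TMOD4 over TMOD1 was 9.52 in kid (9.21 to 9.84), 10.03 in youth (9.71 to 10.4) and 10.5 in adult (10.2 to 10.8).

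The leiomodins were highest in youth, unlike the tropomodulins. LMOD2 (gene 102191762), known from the heart and skeletal muscle, was at 417, 513 and 378 FPKM. LMOD3 (gene 102175625), also a leiomodin of skeletal muscle, was at 286, 371 and 307 FPKM, below LMOD2 in each library. In youth against kid LMOD3 was 1.30-fold higher (1.26 to 1.33) and LMOD2 1.23-fold higher (1.20 to 1.26), and 6.43% and 9.16% of all genes had a higher ratio. In adult against youth LMOD2 was lower by 1.36-fold (1.33 to 1.39) and LMOD3 1.21-fold lower (1.18 to 1.24). The youth library enters both of these comparisons, so that its level appears in each with opposite sign. Adult and kid lay close together, with LMOD2 1.10-fold lower in adult (1.08 to 1.13) and LMOD3 1.07-fold higher (1.05 to 1.10). LMOD2 over LMOD3 was 1.46 in kid (1.42 to 1.50), 1.38 in youth (1.35 to 1.42) and 1.23 in adult (1.20 to 1.26), so the balance lay nearest to LMOD3 in adult.

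Set against each other, the pointed-end proteins differed most between youth and adult. The summed FPKM of TMOD1 and TMOD4 over that of LMOD2 and LMOD3 was 1.45 in kid, 1.31 in youth and 1.79 in adult. Per 1000 FPKM of ACTA1, the tropomodulins stood at 70.6, 64.1 and 57.3 and the leiomodins at 48.6, 49.1 and 31.9. The leiomodins thus kept step with ACTA1 between kid and youth, and were lower against it in adult. These are ratios of mRNA, and protein was not measured.

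**Figure D3:**
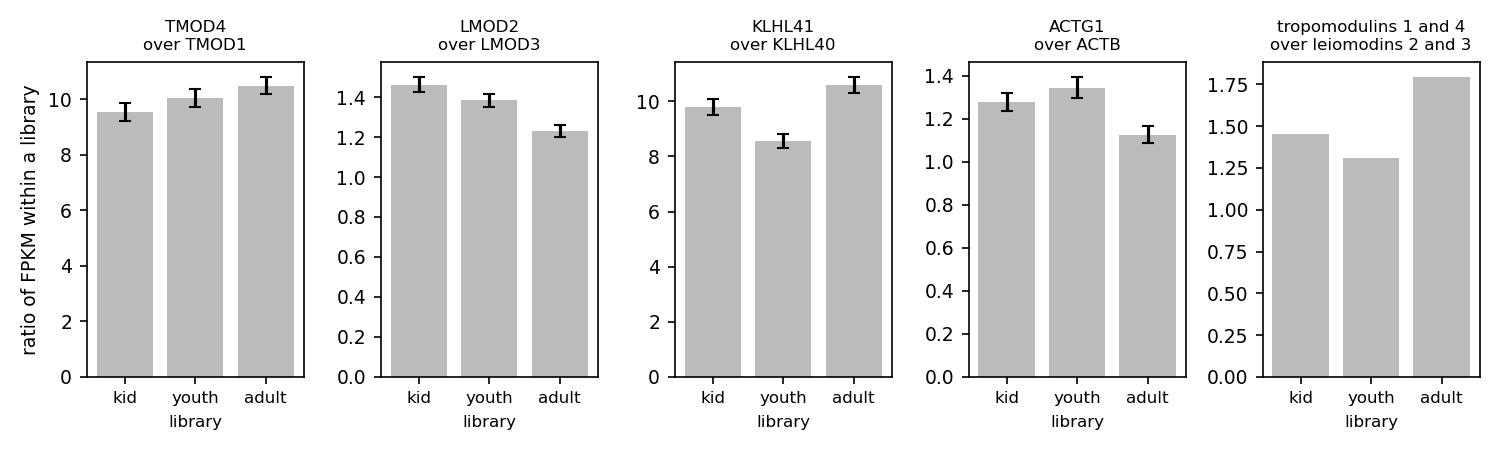
Ratio of FPKM within each library (kid, youth, adult) for 4 pairs of related genes, as grey bars with black error bars for exact 95% intervals of the reads, and for the tropomodulins over the leiomodins (no interval). The last ratio is highest in adult (1.79) and lowest in youth (1.31), and LMOD2 over LMOD3 is lowest in adult (1.23).

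CAPZB, the beta subunit of the barbed-end cap, was read from gene 102169433, which was matched by its product text and has no symbol in RefSeq. Splice forms of the gene, which differ between the Z-disc and the cytoskeleton, are not separated in the table. Its level was 62.1, 71.4 and 65.4 FPKM, from 1565, 1695 and 1916 reads. It was 1.15-fold higher in youth than in kid (1.07 to 1.23) and lower by 1.09-fold in adult against youth (1.02 to 1.17). Adult and kid were within counting error (ratio 1.05, 0.985 to 1.13). The alpha subunits CAPZA1 and CAPZA2, its partners in the dimer, summed to 68.5, 72.3 and 69.5 FPKM. CAPZB over this sum was 0.907, 0.987 and 0.941, close to equal levels of beta and alpha subunit in each library. CAPZA3, a testis form, was at 0 throughout.

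The kelch genes differed little. KLHL41 (gene 102173422) was at 1397, 1267 and 1420 FPKM, lowest in youth. It was 1.10-fold lower in youth than in kid (1.09 to 1.12) and 1.12-fold higher in adult than in youth (1.11 to 1.13). Adult and kid differed by 1.65%, and the direction of that difference turned when libraries were rescaled to a common sum or quantile-normalized. KLHL40 (gene 102180163) was at 143, 148 and 134 FPKM. Its ratio of youth to kid was 1.04, with an interval that included 1 (0.999 to 1.08), and from youth to adult the level was lower by 1.10-fold (1.06 to 1.15). It was 1.06-fold lower in adult than in kid (1.02 to 1.10), a direction that turned when each library was divided by its median ratio. KLHL41 over KLHL40 was 9.79 in kid (9.52 to 10.1), 8.55 in youth (8.30 to 8.80) and 10.6 in adult (10.3 to 10.9). Nebulin (NEB), the client of both, was at 698, 606 and 599 FPKM, highest in kid. It was 1.16-fold lower in adult than in kid (1.16 to 1.17), while ACTA1 over NEB was 20.8, 29.7 and 35.8.

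Across the 11 genes, none was at least 2-fold apart between any of the libraries on the scale of log2(FPKM + 1). Of the 12121 genes, 1.05% were in youth against kid, 2.08% in adult against youth and 1.76% in adult against kid. These shares comprised 51 higher and 76 lower genes in youth against kid, 122 and 130 in adult against youth, and 65 and 148 in adult against kid. With each library divided by its median ratio the split was 60 and 60 in youth against kid and 92 and 105 in adult against kid. After quantile normalization it was 62 and 56, and 90 and 100. The nearest to this threshold was ACTC1 in youth against kid, with a difference of -0.93.

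Beyond counting error, 6 of the 11 genes were higher in youth than in kid (ACTA1, TMOD1, TMOD4, LMOD2, LMOD3 and CAPZB), against 11.6% of all genes. The 4 lower ones were ACTC1, ACTB, ACTG1 and KLHL41, against 26.9% of all genes. In adult against youth 4 were higher (ACTA1, ACTC1, TMOD4 and KLHL41), against 22.3%. The other 6 beyond counting error were lower (ACTB, ACTG1, LMOD2, LMOD3, KLHL40 and CAPZB), against 27% of all genes. In adult against kid 5 were higher (ACTA1, TMOD1, TMOD4, LMOD3 and KLHL41), against 16.7%, and 5 were lower (ACTC1, ACTB, ACTG1, LMOD2 and KLHL40), against 34.6%. Counting intervals are narrow for abundant genes. Among the 2535 genes whose mean reached that of ACTC1 (24.6 FPKM), 59.8%, 73.0% and 72.5% were beyond counting error in the 3 comparisons, so the totals of 10 of 11 in each are read against those shares. Each library enters 2 of the 3 comparisons, which are not independent of each other.

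**Figure D4:**
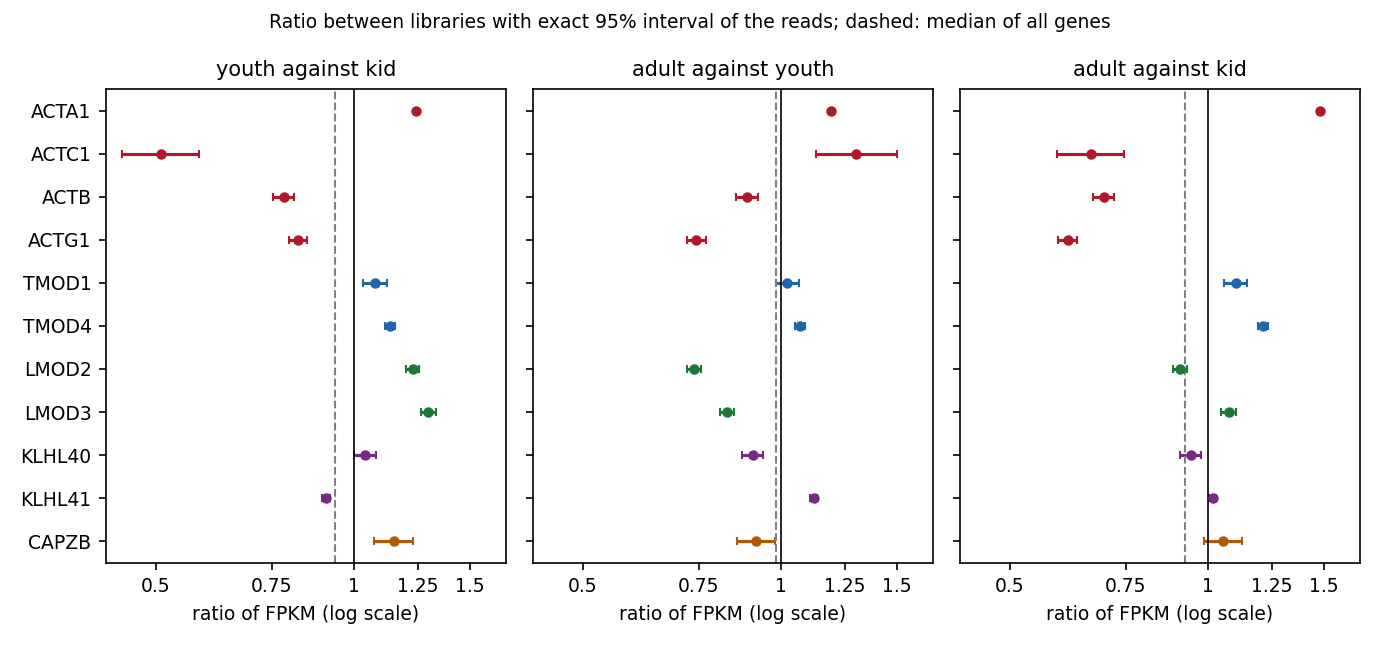
Ratio of FPKM (log axis) of the 11 genes in the 3 comparisons, with exact 95% intervals of the reads, a solid line at 1 and a dashed line at the median ratio of all genes. ACTA1 and TMOD4 lie right of 1 in each panel, ACTB and ACTG1 left of it, and the leiomodins change sides between the first and second panel.

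The median of all 12121 genes was itself below 0. On the log2(FPKM + 1) scale it was -0.08 in youth against kid, -0.02 in adult against youth and -0.10 in adult against kid. The medians of the 11 genes were 0.11, -0.12 and 0.02. Dividing each library by its median ratio moved the median of all genes in adult against kid to 0.02. Relative to the median gene, ACTA1 was at 1.60 in adult against kid, TMOD4 at 1.31, TMOD1 at 1.19, LMOD3 at 1.16, CAPZB at 1.14 and KLHL41 at 1.10. KLHL40 was at 1.02 and LMOD2 at 0.980, and ACTB, ACTC1 and ACTG1 were at 0.752, 0.718 and 0.663. Between their highest and lowest library, the 11 genes ranged from 1.10-fold (TMOD1) to 1.96-fold (ACTC1), with a median of 1.30-fold against 1.31-fold for all genes.

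**Figure D5:**
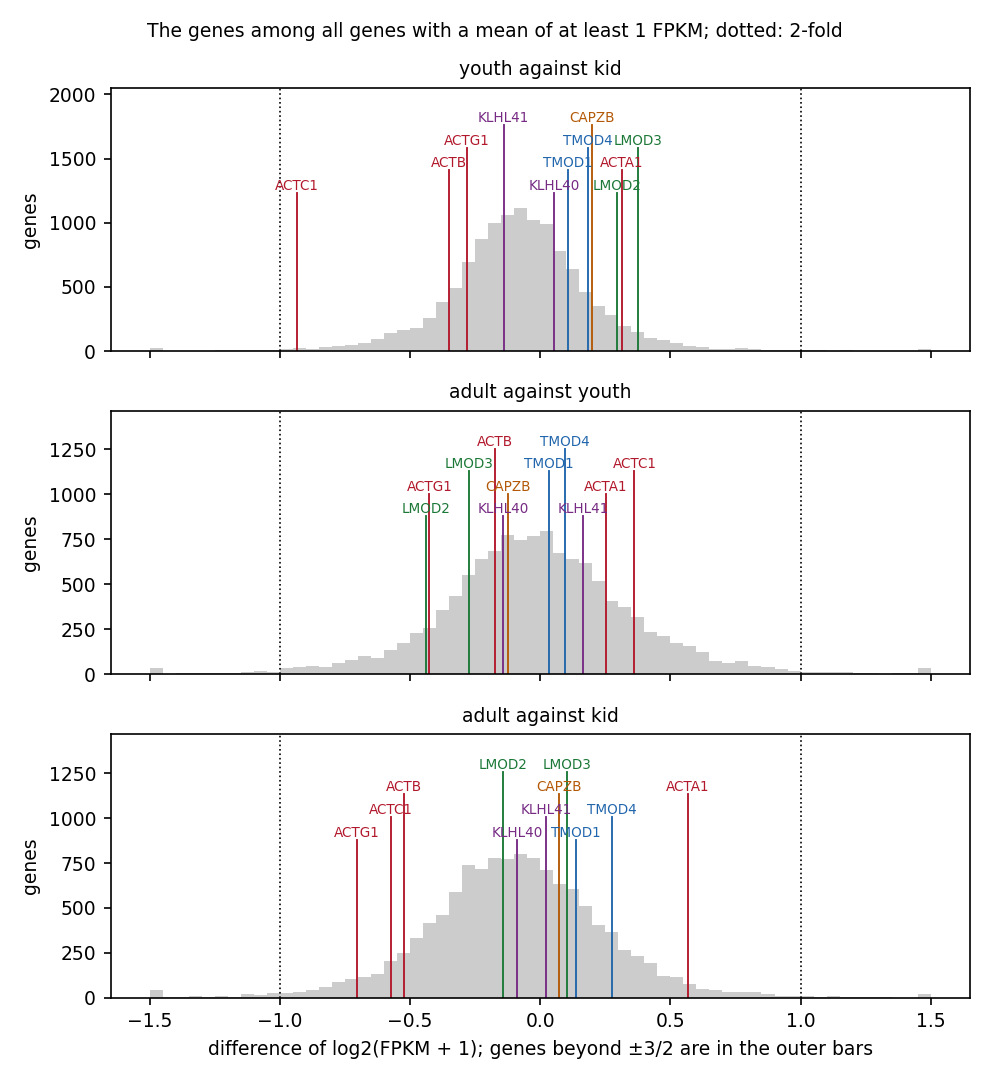
Histograms of the difference of log2(FPKM + 1) for 12121 genes in the 3 comparisons, with a vertical line for each of the 11 genes and dotted lines at a 2-fold difference. All lines lie inside the dotted lines. ACTC1 stands farthest out in youth against kid (-0.93), and ACTG1 (-0.71) and ACTA1 (0.57) at either end in adult against kid.

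Other genes of the thin filament and its anchors were counted in lists, as higher or lower beyond counting error. Of all genes, 11.6% were higher and 26.9% lower in youth than in kid, and 22.3% and 27% in adult than in youth. In adult against kid the shares were 16.7% and 34.6%. Among genes averaging as much as ACTC1 or more, 59.8%, 73.0% and 72.5% were beyond counting error in these 3 comparisons. Most of the Z-disc list was that abundant. Of 17 further capping and thin-filament genes that averaged 1 FPKM or more, 5 were higher and 8 lower in youth than in kid, 10 higher and 4 lower in adult than in youth, and 6 higher and 5 lower in adult than in kid. The tropomyosin TPM2, the most abundant of them, was at 6251, 6630 and 8990 FPKM, and the fast troponin T gene TNNT3 at 2945, 3368 and 4212 FPKM, both in the order of ACTA1. TMOD3, the tropomodulin of all cells, was at 10.2, 10.5 and 7.46 FPKM, and smooth muscle LMOD1 at 19.9, 20.6 and 25.1 FPKM. The Z-disc list of 17 genes held the alpha-actinins and other proteins that bind actin filaments or alpha-actinin or belong to the Z-disc. Of these, 8 were higher and 7 lower in youth than in kid, and 12 higher and 4 lower in adult than in youth. In adult against kid 11 were higher and 3 lower. XIRP1, which binds and stabilises actin filaments, was at 338, 490.5 and 594 FPKM, in the order of ACTA1. Its relative XIRP2 was at 403, 200.5 and 399 FPKM, lowest in youth. MYOZ1, a binder of alpha-actinin and the most abundant of the list, was at 1530, 1363 and 1555 FPKM, and LDB3, a Z-disc adaptor, at 531, 534 and 736 FPKM.

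Of 24 genes of actin turnover and assembly, 4 were higher and 11 lower in youth than in kid, 8 higher and 10 lower in adult than in youth, and 7 higher and 12 lower in adult than in kid. On the log2(FPKM + 1) scale the largest ranges were those of ACTR3, a core subunit of the Arp2/3 nucleator, at 22.4, 24.0 and 13.8 FPKM, the formin DAAM1 at 8.72, 7.45 and 5.10 FPKM, and TWF2, a twinfilin that binds actin monomers and CapZ, at 63.4, 64.4 and 98.0 FPKM. The monomer-binding thymosin TMSB10, the most abundant, was at 518, 470 and 430 FPKM, in the order of ACTB. Of 16 genes of actin folding (chaperonin and prefoldin subunits), 3 were higher and 5 lower in youth than in kid, 4 higher and 7 lower in adult than in youth, and 2 higher and 6 lower in adult than in kid. Of these 6 the chaperonin genes TCP1, CCT3 and CCT8 turned direction with each library divided by its median ratio. Prefoldin PFDN5 was at 226, 187 and 172 FPKM, PFDN2 at 71.3, 58.8 and 79.6 FPKM and PFDN4 at 63.8, 82.5 and 69.0 FPKM.

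Actin genes are classic targets of serum response factor (SRF), whose coactivators respond to the pool of actin monomers. SRF was at 21.3, 22.8 and 23.5 FPKM, and 1.10-fold higher in adult than in kid (1.02 to 1.19). ABRA, which activates SRF signalling in striated muscle, was at 91.9, 145 and 127 FPKM, highest in youth. Of 11 genes of this list at or above an average of 1 FPKM, which includes MEF2 and myogenic factors, 2 were higher and 5 lower in youth than in kid, 3 higher and 4 lower in adult than in youth, and 4 higher and 5 lower in adult than in kid. The muscle LIM protein gene FHL1, the most abundant, was at 2813, 2675 and 3509 FPKM. MYF6, a myogenic factor of mature fibres, was at 247, 167 and 96.6 FPKM, and myogenin (MYOG) at 19.0, 17.0 and 62.0 FPKM. The smooth and heart muscle coactivator MYOCD was at 1.37, 1.09 and 0.379 FPKM. Of 11 further kelch and cullin genes, 4 were higher and 2 lower in youth than in kid, 6 and 2 in adult than in youth, and 6 and 2 in adult than in kid. KLHL31, a kelch protein of striated muscle, was at 94.5, 109 and 133.5 FPKM and KLHL21 at 42.0, 53.1 and 58.4 FPKM, both in the order of ACTA1. CAND1, which exchanges the substrate receptors of cullins, was at 8.58, 7.75 and 5.53 FPKM. CUL3, the cullin that kelch proteins bind, was at 46.7, 49.95 and 45.2 FPKM.

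Besides those folding genes, some counted genes turned direction under at least 1 scaling. In adult against kid these were ACTN3, MYOZ1 and MYPN (Z-disc), TNNI1 and TPM1 (capping and thin-filament), CAP2 (turnover) and RBX1 (kelch and cullin). In youth against kid they were MYPN and PDLIM3 (Z-disc), NRAP (capping and thin-filament), CFL2 (turnover) and FHL1 (SRF list). In adult against youth they were MYOT and MYPN (Z-disc), NEB and TPM1 (capping and thin-filament) and CAP2 (turnover). Beside their counts, read against the shares of all genes given above, the lists had these medians on the log2(FPKM + 1) scale, where all genes had -0.08 in youth against kid, -0.02 in adult against youth and -0.10 in adult against kid. The capping and thin-filament list was at -0.03, 0.15 and 0.03 in these 3 comparisons, and the Z-disc list at 0.01, 0.15 and 0.09. Turnover and assembly genes were at -0.09, -0.10 and -0.15, and folding genes at -0.03, -0.06 and -0.01. The SRF list was at -0.11, -0.05 and -0.08, and the kelch and cullin list at 0.02, 0.14 and 0.09. The medians of the Z-disc, capping and kelch lists thus lay above that of all genes in each comparison. Those of the turnover list lay below it, but hardly so in youth against kid (-0.090 against -0.083).

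Genes most like ACTA1, ACTC1 and ACTB were sought among 4168 named genes at or above 10 FPKM in each library. Likeness was the distance between the pairs of log2 ratios, youth to kid and adult to youth, over the 3 libraries. With 3 libraries it is a description only. Nearest to ACTA1 were RNF157, the formin DIAPH1, which elongates actin filaments, FRMD3, PELO and CLIC5, at distances of 0.026 to 0.048, and 20 genes lay within 0.1. DIAPH1 was at 50.1, 62.4 and 75.7 FPKM. Nearest to ACTC1 was the growth factor gene IGF1 (distance 0.050), the only gene within 0.1, at 23.8, 12.4 and 15.9 FPKM. DNAJB1, NDUFAF2, SLC29A2 and RPS19BP1 followed at 0.13 to 0.26. Around ACTB 52 genes lay within 0.1, the nearest being C15H11orf96, RPS27, RPL39, ATP6V0A1 and DMD, the dystrophin gene, at 83.1, 64.0 and 55.6 FPKM.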

How the data were processed

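RNA of the longissimus dorsi of goats at 3 ages was sequenced, 1 library per age. The authors deposited FPKM values, 1 column per library. FastQC, TopHat2 and DESeq are named per the submitters' processing notes, without version or role. The genome build, annotation and counting method are not stated there. Reads and gene lengths were worked out from the steps of the FPKM values (python 3.11.15, numpy 2.4.6, scipy 1.17.1), counting a read as whole within 5e-05 plus rounding. All 16054 entries above 0 in 3 libraries were resolved, and the totals were 15829474, 14920689 and 18399385 for kid, youth and adult. The step was tested on simulated data. Reads and length can share a common factor, which widens an interval. Differences were taken on log2(FPKM + 1), a scale that understates low genes, for the 12121 genes averaging 1 FPKM or more. No test was run. Symbols came from RefSeq by gene number (21743 of 24689 entries, ARS1.2, names only), and 9 list genes were matched by product text. The members and the 16 further lists were chosen with earlier results of these data known. From each actin-related list the text names the most abundant gene and up to 3 with the largest range; for marker lists, counts and sums. ACTG1 and CUL3, NEB, SRF, ABRA, LMOD1 and the genes ACTA1 is divided by were added for their role. No sequences were printed. Alternatives changed the pseudocount (0.1 or 5), the filter (none, or an average of 5 FPKM) and the scaling (common sum, median ratio, without the 10 most abundant genes, quantile).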

Additional observations from a re-analysis of the deposited data

How the results depend on the processing

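The numbers of genes at least 2-fold apart (127 in youth against kid, 252 in adult against youth, 213 in adult against kid) became 300, 555 and 451 with a pseudocount of 0.1, 45, 82 and 71 with a pseudocount of 5, and 64, 160 and 122 for genes averaging 5 FPKM or more, in which fewer genes were counted. They stayed within 1.5 times without a filter and under the 4 other scalings. Of 264 recomputed differences of the 11 genes, 6 changed sign. Of these 3 were of TMOD1 in adult against youth, which was within counting error (0.0319), and was at -0.0307 after rescaling to the mean sum, -0.0148 without the 10 most abundant genes and -0.0393 after quantile normalization. The other 3 were in adult against kid: KLHL41 was at -0.0214 after rescaling to the mean sum and at -0.0585 after quantile normalization, and KLHL40 at 0.0492 with each library divided by its median ratio. In youth against kid ACTA1 held the same rank in both libraries, so quantile normalization set its difference to 0, and its difference of adult to kid went from 0.57 to 0.20. The ACTC1 share had no other entries to add and was the same. With division by the median ratio 11, 10 and 9 of the 11 genes were beyond counting error. No paired analysis was possible because each stage had 1 library, and for the same reason no library could be left out. Each of these genes had at least 324 reads in a library, and differences between animals of the same age cannot be told apart from age.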

Other observations

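ACTB and GAPDH often serve as reference genes when transcripts are measured by PCR, so 16 common reference genes were set side by side. In adult against kid 9 were lower and 4 higher beyond counting error, with 3 within it, where 34.6% of all genes were lower and 16.7% higher. In the order kid, youth and adult, ACTB was at 248, 194 and 172 FPKM. YWHAZ, an adaptor protein gene, was at 29.05, 23.6 and 12.7 FPKM, 2.28-fold lower in adult than in kid (1.92 to 2.71). PPIA, the gene of cyclophilin A, was at 119, 95.3 and 74.7 FPKM. GAPDH, the most abundant, was at 7438, 8141 and 7182 FPKM, and the direction of its difference between adult and kid turned with division by the median ratio. TBP, HPRT1 and GUSB were within counting error in all 3 comparisons, at 5.48 to 5.89, 10.9 to 12.4 and 2.46 to 3.34 FPKM, where intervals are wider than for ACTB. GUSB had only 43, 47 and 68 reads, and its ratio of adult to kid was 1.36 (0.915 to 2.04).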
